A study of Mus with 18 samples.

Results

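The comparison of LPS with control in gastrocnemius muscle rested on 6 of the 18 samples of the series: 3 control and 3 LPS libraries of RNA from mouse muscle. Members were the genes with a mean above 1 FPKM (fragments counted on a gene, scaled by the length of its transcript and by the size of the library) over these 6 libraries, which held for 9301 of the 21401 gene symbols in the muscle table. The mice were wild-type C57BL/6 males whose age was not given in the sources used here. LPS mice received lipopolysaccharide at 10 mg/kg body weight by intraperitoneal injection, and muscle was taken 16 h later. Control mice were labelled as a saline vehicle control, and a figure legend of the study describes them as given 10% DMSO by mouth. The third muscle group, LPS-MIC-1, had moringa isothiocyanate-1 at 80 mg/kg by gavage daily for 3 days in 10% DMSO and then LPS. It served here as a point of reference, and its libraries also entered the estimate of spread behind the standard errors and p-values. Whether the LPS mice were also given DMSO by mouth was not given in the sources used here. The muscle was trimmed of fat and connective tissue. The labels number the libraries as replicates without naming the mouse that each came from. The p-values therefore measure the spread between these libraries, which may be technical.

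Lipopolysaccharide is the outer-membrane glycolipid of Gram-negative bacteria. It binds Toll-like receptor 4 and its co-receptors, and the NF-kB and interferon programmes that follow induce cytokines, chemokines and acute-phase proteins. Cytokines of the interleukin-6 type act on muscle through JAK kinases and STAT factors, and SOCS proteins are the feedback inhibitors of that pathway. Skeletal muscle under endotoxin is known for proteolysis through the ubiquitin ligases of the FoxO programme and for shifts in the use of glucose and fatty acids.

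The depth was even, at 13516600 to 13710100 estimated reads in each of the 6 libraries, reconstructed from the deposited values. Libraries of one group resembled each other closely, with Pearson correlations of 0.949 to 0.952 among the controls and 0.956 to 0.960 among the LPS libraries over log2 values of the tested genes. Genes with 300 to 1000 estimated reads had a median coefficient of variation of 5.51% in the controls and 4.87% in the LPS libraries. The true coefficient under counting error alone is 4.49% and 4.48%, but the median of estimates from 3 libraries lies below it. On a matched scale, the median variance divided by the mean was 1.59 and 1.23, where counting error alone gives 0.693. The tissue label held, since the 16 myofibre genes summed to between 230862 and 248350 FPKM in every library. The slow isoforms of the sarcomere were close to absent. Myh7, the slow myosin heavy chain, stood at 0.124 to 0.189 FPKM in the controls and 0.0378 to 0.200 in the LPS libraries, and Tnni1, Tnnt1 and Myl2 were also under the filter.

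The strong expression of inflammatory genes did not follow the LPS label. Lcn2, which encodes the siderophore-binding acute-phase protein lipocalin-2, was 0.445, 0.991 and 0.111 FPKM in the control libraries and 0.336, 1.24 and 1.34 in the LPS libraries. The LPS-MIC-1 libraries had 1318, 1264 and 1162 FPKM. Saa3, a serum amyloid A protein, was 0 in each control, between 0.871 and 1.33 FPKM in the LPS libraries and between 489 and 547 in the LPS-MIC-1 libraries. The 20 acute-phase genes of the list together summed to 6.66 to 7.73 FPKM in the controls, 10.4 to 11.6 in the LPS libraries and 1803 to 2014 in the LPS-MIC-1 libraries. Small rises were present, as Serpina3n was 0.0770 to 0.194 FPKM in the controls and 0.660 to 1.14 in the LPS libraries. With no FPKM filter, 2 of 13 acute-phase genes were called higher and none lower, where 722 of all 14601 genes were called higher and 647 lower. With the filter, 2 acute-phase genes were tested and none was called. The LPS libraries thus lay far nearer to the controls for these genes than to the libraries that had also received MIC-1. All 3 LPS libraries were alike in this, so no result could be given without them, and every direction stated from here on is that of the libraries labelled LPS.

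**Figure D1:**
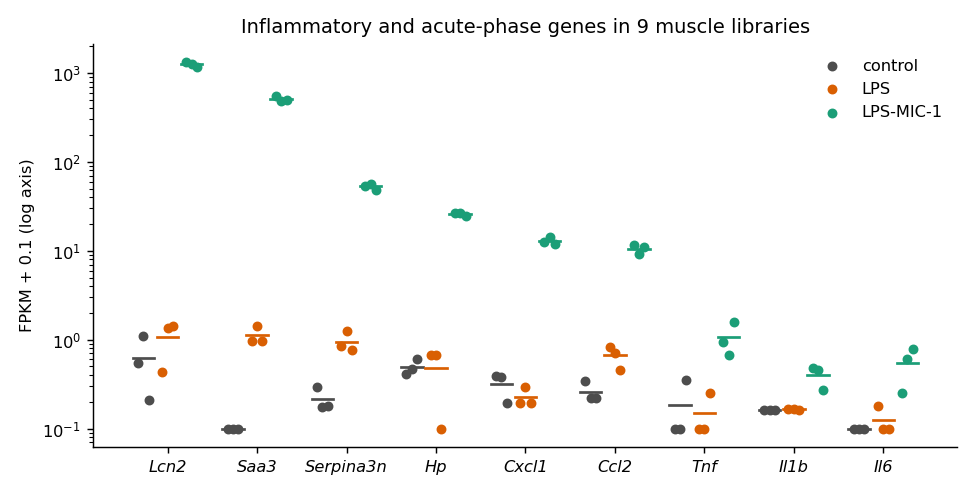
FPKM plus 0.1 on a log axis for 9 inflammatory and acute-phase genes in the 9 muscle libraries, with a point for each library and a bar for each group mean. Control and LPS points lie in the lower part of the axis. Each LPS point of Saa3, Serpina3n and Ccl2 lies above every control point, and the points of the other genes overlap. In LPS-MIC-1, Lcn2 reaches 1162 to 1318 FPKM and Saa3 489 to 547 FPKM.

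The cytokines named in the study were likewise close to 0. Tnf, the classical early cytokine of endotoxaemia, was 0, 0 and 0.252 FPKM in the controls and 0, 0 and 0.151 in the LPS libraries. Il1b was between 0.0630 and 0.0641 FPKM in 5 of the 6 libraries and 0.0644 in the other, Il6 was above 0 in 1 LPS library at 0.0780 FPKM, and Nos2 was listed at 0 in all. None of the 11 Ifna genes was above 0 in any of the 6 libraries. The receptor Tlr4 was at 0.105 to 0.192 FPKM in the controls and 0.0858 to 0.202 in the LPS libraries, and Cd14, its co-receptor, at 0.296 to 0.693 and 0.395 to 0.599. These genes were under the filter and were not tested.

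Of the 9301 genes, 1480 (15.9%) were called, 1371 of them (14.7%) at under 2-fold and 109 (1.17%) above it. Called means that a gene had a Benjamini-Hochberg adjusted p under 0.05 in limma's moderated test. Higher expression in LPS was called for 773 genes (8.31%) and lower expression for 707 (7.6%). Most of these changes were small. Changes of no more than 2-fold made up 719 of the genes called higher (7.73% of those tested) and 652 of the genes called lower (7.01%). Only 54 genes rose (0.581%) and 55 fell (0.591%) by more than 2-fold. Here the log2 fold change is the difference between the LPS and control means of log2(FPKM + 0.1), given with its standard error. Among the genes called at under 2-fold, the median absolute change was 0.371 on this scale, or 1.29-fold, and the smallest was 1.08-fold. By size, 211 rises and 129 falls were under 0.25 on the log2 scale, 341 and 277 were between 0.25 and 0.5, and 167 and 246 were between 0.5 and 1. Of the 1480 called genes, 1 had groups that overlapped. Over all tested genes the groups were fully separated for 36.9%, with LPS above for 19% and below for 17.9%. An exact permutation test of 3 against 3 libraries cannot give a p below 0.1, so no single gene could reach 0.05 by that test. Changes were called more often in abundant genes, from 6.02% of the genes with a mean of 1 to 2.18 FPKM to 28.9% of those above 25.4 FPKM. When any 1 library was left out, 501 to 596 genes were called higher and 465 to 518 lower, and 789 of the 1480 genes kept their call in each of the 6 leave-outs. The count of genes called higher moved by more than 1.5 times only without LPS replicate 1, at 501, and that of genes called lower only without control replicate 2, at 465.

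**Figure D2:**
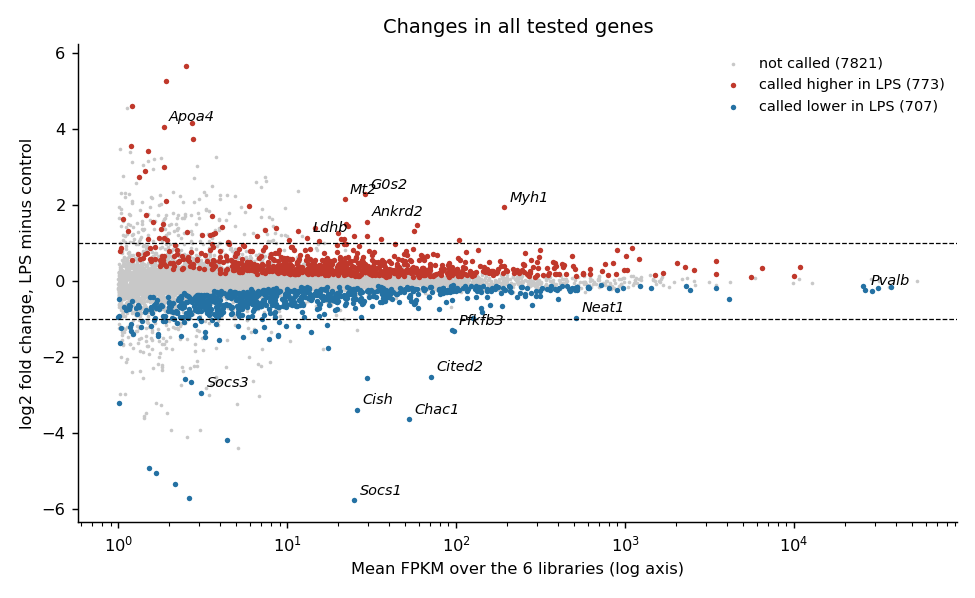
Log2 fold change, LPS minus control, against the mean FPKM of the 6 libraries on a log axis for the 9301 tested genes, with 773 genes called higher in red, 707 called lower in blue and the remainder in grey. Dashed lines mark 2-fold. Most coloured points lie between the lines, and Socs1, Cish and Chac1 lie far below them.

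Several genes of the SOCS family were among the largest falls. Socs1, which binds and inhibits JAK kinases, was 49.4, 49.5 and 47.6 FPKM in the controls and 0.792, 1.38 and 0.429 in the LPS libraries. The groups were far apart, and the level fell 56.4-fold (log2 fold change -5.79 ± 0.31, adjusted p = 1.83e-05). Cish, the cytokine-inducible SH2 protein that limits STAT5 signalling, was 47.3, 46.8 and 47.2 FPKM in the controls and 4.11, 5.05 and 4.11 in the LPS libraries, a 10.6-fold fall (-3.39 ± 0.09, adjusted p = 4.16e-07). Socs3, the inhibitor that acts at the interleukin-6 receptor chain gp130, was at a lower level, 6.10, 4.63 and 5.78 FPKM in the controls and 0.725, 1.08 and 0.288 in the LPS libraries (-2.95 ± 0.36, adjusted p = 0.0011). Socs2, which restrains growth hormone signalling, was 24.4, 23.3 and 23.3 FPKM in the controls and 9.80, 11.4 and 10.5 in the LPS libraries (-1.16 ± 0.07, adjusted p = 4.9e-05). The fall held for all 4 of these genes with any 1 library left out. In the LPS-MIC-1 libraries Socs1 was 3.46 to 4.59 FPKM and Cish 1.28 to 1.47, so that these libraries also lay below the controls.

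The kinases and receptors upstream moved by small amounts. Of the 25 tested genes of the JAK, STAT and SOCS list, 4 rose and 5 fell, with a median log2 fold change of 0.01 beside 0.01 for all tested genes. The share called was 36%, beside 15.9% of all tested genes. Jak1, a kinase shared by many cytokine receptors, was 16.1 to 18.2 FPKM in the controls and 22.4 to 24.6 in the LPS libraries (0.44 ± 0.06, adjusted p = 0.0016). Jak2, which serves the growth hormone and erythropoietin receptors, was 8.47, 7.97 and 7.67 FPKM in the controls and 10.7, 10.2 and 10.5 in the LPS libraries (0.38 ± 0.07, adjusted p = 0.01). Il6st, the gp130 chain, rose by 0.26 ± 0.05 (adjusted p = 0.0099). Stat3, the transcription factor downstream of gp130, was 6.26, 6.26 and 5.97 FPKM in the controls and 7.40, 7.04 and 6.75 in the LPS libraries, and its call (0.19 ± 0.05, adjusted p = 0.044) was lost when any 1 library was left out. The remaining fall was in Ifngr2, a chain of the interferon gamma receptor (-0.18 ± 0.04, adjusted p = 0.014).

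Chac1, a glutathione-degrading enzyme induced by the integrated stress response, fell with the SOCS genes. It was 97.3, 103 and 93.9 FPKM in the controls and 6.60, 8.66 and 8.03 in the LPS libraries (12.6-fold, -3.65 ± 0.10, adjusted p = 4.16e-07). The LPS-MIC-1 libraries had 103 to 115 FPKM, at or above the highest control. Cited2, a transcriptional co-regulator that binds CBP and p300, was 121, 122 and 118 FPKM in the controls and 21.4, 22.3 and 18.7 in the LPS libraries (5.78-fold, -2.53 ± 0.07, adjusted p = 4.68e-07). Slc15a2, a peptide transporter, fell from 4.36 to 5.07 FPKM in the controls to 0.564 to 0.773 in the LPS libraries (-2.65 ± 0.14, adjusted p = 1.79e-05). Aebp1, a matrix-associated carboxypeptidase-like protein, was 29.0, 28.5 and 23.2 FPKM in the controls and 7.58, 8.52 and 7.30 in the LPS libraries (-1.77 ± 0.23, adjusted p = 0.00173). Each of these falls was called in all 6 leave-outs.

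Several large fold changes were in genes listed at 0 in a group or with scattered replicates. Clstn1 was 2.45, 4.23 and 2.46 FPKM in the controls and listed at 0 in each LPS library, and its call was lost without control replicate 2. Mfsd7b was 6.85, 7.60 and 9.97 FPKM in the controls and 0.456, 0 and 1.53 in the LPS libraries (-4.18 ± 0.84, adjusted p = 0.0126). Among the rises, 1810055G02Rik was listed at 0 in the controls and was 4.11, 4.55 and 2.90 FPKM in the LPS libraries, with a call in all 6 leave-outs, and Rdh5 was listed at 0 in the controls and was 2.73, 2.88 and 1.63 in the LPS libraries, with a call in 3 of the 6 leave-outs. Mbnl1, which encodes a splicing regulator, varied widely within the controls, at 1.98, 0.120 and 0 FPKM, beside 3.34, 5.58 and 5.57 in the LPS libraries (3.75 ± 0.94, adjusted p = 0.0299), and its call held in 1 of the 6 leave-outs. The rises of Rptor, Scyl2, Dcaf5, Ces2c and Ppcdc were each called in 2 of the 6 leave-outs. The fall of 1110034G24Rik, from 2.29, 1.98 and 1.11 FPKM to 0, 0 and 0.67 (-3.21 ± 0.90, adjusted p = 0.047), was called in 1. Gm2176, a predicted gene, was 4.62, 4.73 and 3.63 FPKM in the controls and 1.01, 0.578 and 0.429 in the LPS libraries and was called in all 6. Small RNA genes were counted apart. Of 59 tested snoRNA genes 1 was called higher (Snord49b) and 1 lower (Snora15), and of 44 microRNA genes 1 was called higher (Mir191) and 3 lower (Mir343, Mir1904 and Mir3064). Apart from Mir3064, with 58.7 to 121 estimated reads in each library, none of these had more than 4.4 estimated reads in any library.

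**Figure D3:**
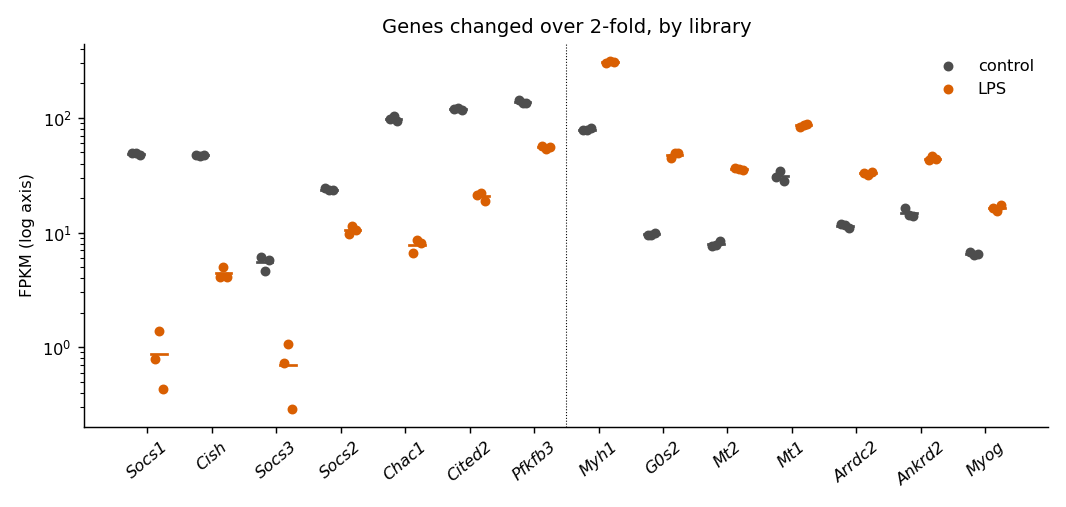
FPKM in each control and LPS library, on a log axis, for 7 genes called lower and 7 called higher by more than 2-fold, with bars at the group means. The LPS points of Socs1 lie between 0.429 and 1.38 FPKM under controls of 47.6 to 49.5, and those of Myh1 between 302 and 311 over controls of 77.7 to 82.0.

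Rises of more than 2-fold with close replicates included genes of the sarcomere, of lipid storage and of metal binding. Myh1, the myosin heavy chain of fast type 2X fibres, was 77.7, 77.7 and 82.0 FPKM in the controls and 302, 311 and 305 in the LPS libraries (1.95 ± 0.04, adjusted p = 1.8e-07). G0s2, an inhibitor of the triglyceride lipase encoded by Pnpla2, was 9.54, 9.56 and 9.85 FPKM in the controls and 44.5, 49.6 and 49.0 in the LPS libraries (2.29 ± 0.07, adjusted p = 9.49e-07). The LPS-MIC-1 libraries had 7.94 to 9.51 FPKM, just below the controls. Mt2, a zinc-binding metallothionein, was 7.70, 7.78 and 8.41 FPKM in the controls and 36.3, 35.6 and 35.5 in the LPS libraries (2.16 ± 0.05, adjusted p = 4.16e-07), and its neighbour Mt1 was 30.7, 34.7 and 28.4 beside 82.6, 87.5 and 88.5 (1.46 ± 0.07, adjusted p = 1.3e-05). The metallothionein rise was small beside the LPS-MIC-1 libraries, in which Mt2 was 5957 to 6773 FPKM.

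The myosin change was one of several among the contractile genes. Of 18 tested fast-fibre genes 5 rose and 5 fell, with a median log2 fold change of -0.01. With any 1 library left out, 3 to 4 rose and 2 to 5 fell. The share called was 55.6%, beside 15.9% of all tested genes and 28.9% of those above 25.4 FPKM. The type 2A myosin heavy chain Myh2 was 16.9, 16.7 and 19.1 FPKM in the controls and 22.7, 23.0 and 23.6 in the LPS libraries (0.40 ± 0.06, adjusted p = 0.0022). Myh4, the type 2B heavy chain and by far the most abundant of these, was 10657, 10017 and 10900 FPKM in the controls and 10908, 10696 and 11127 in the LPS libraries and was not called (0.05 ± 0.04, adjusted p = 0.379). The falls were slight and in the most abundant transcripts of the muscle. Tnnc2, fast troponin C, was 30796, 30545 and 33094 FPKM in the controls and 26527, 26018 and 26377 in the LPS libraries (-0.26 ± 0.03, adjusted p = 0.00163). Pvalb, the calcium buffer of fast fibres, was 27801 to 29292 FPKM in the controls and 23710 to 24449 in the LPS libraries (-0.24 ± 0.04, adjusted p = 0.00558). Tpm1 (-0.18 ± 0.04), Ckm (-0.15 ± 0.03) and Tnni2 (-0.14 ± 0.03) were also called lower, Tpm1 in 4 of the 6 leave-outs and Ckm and Tnni2 in 2 each. The share of summed FPKM in the 10 top genes was 44.1% to 44.2% in the controls and 41.6% to 41.8% in the LPS libraries. Under quantile normalization Ckm and Tnni2 had log2 fold changes of 0 and 0.02. That scaling gives genes of equal rank the same value, so it cannot test a fall that leaves the rank unchanged.

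Several genes of oxidative fibres rose. Of 14 tested genes of the slow-fibre list 6 rose and 1 fell (50% called against 15.9% of all genes), with a median of 0.32. The median ran from 0.12 to 0.33 with any 1 library left out. With no FPKM filter, 6 of 20 rose and 3 fell, with a median of -0.16, where 722 of all 14601 genes rose and 647 fell. Of the members not called, Tnnc1 (-1.08), Tpm3 (-0.50), Myl6b (-0.19), Atp2a2 (-0.13) and Myl3 (-0.08) lay below 0. Csrp3 (0.87) and Casq2 (0.14) lay above it. Ankrd2, a stretch-responsive ankyrin protein of the Z-disc and nucleus, was 16.2, 14.3 and 14.1 FPKM in the controls and 42.6, 46.1 and 43.4 in the LPS libraries (1.56 ± 0.06, adjusted p = 2.3e-06). Myoz2, a calcineurin-binding Z-disc protein, was 4.05, 4.70 and 3.67 FPKM beside 10.9, 10.2 and 10.9 (1.36 ± 0.09, adjusted p = 5.2e-05). Mybpc1, slow myosin-binding protein C, rose by 1.18 ± 0.04 (adjusted p = 1.4e-06). Mb, the oxygen-binding myoglobin, was 734, 779 and 802 FPKM in the controls and 1380.1, 1452 and 1408 in the LPS libraries (0.87 ± 0.05, adjusted p = 1.83e-05). Actn2 was 94.9 to 101 FPKM in the controls and 169.8 to 174 in the LPS libraries (0.82 ± 0.04), and Fabp3, the muscle fatty acid-binding protein, rose by 0.49 ± 0.04. Sln, which encodes the SERCA inhibitor sarcolipin, fell from 4.01 to 6.35 FPKM in the controls to 2.16 to 3.07 in the LPS libraries (-0.91 ± 0.18, adjusted p = 0.011). The defining slow sarcomere genes Myh7, Tnni1, Tnnt1 and Myl2, all under the filter, had lower means in the LPS libraries than in the controls, with 0.0962 against 0.159 FPKM for Myh7 and 0.204 against 0.848 for Tnni1.

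Genes of energy metabolism rose by small and even amounts. Of 33 tested genes of glycolysis and glycogen, 20 rose and 1 fell, with a median log2 fold change of 0.27. The share called was 63.6%, where 15.9% of all genes were called and 28.9% of those above 25.4 FPKM. Many genes of the list were abundant, with a median of gene means of 102 FPKM in the controls. Between 18 and 19 genes of the list were called higher when any 1 library was left out. The rises included glucose uptake, several steps of glycolysis, lactate handling and glycogen synthesis, while Aldoa (-0.01), Pgam2 (0.07) and Pkm2 (0.17) were not called. The insulin-regulated glucose transporter Slc2a4 was 254, 264 and 282 FPKM in the controls and 335, 335 and 349 in the LPS libraries (0.35 ± 0.05, adjusted p = 0.0024), and the first enzyme, Hk2, rose by 0.38 ± 0.03. Gapdh was 9630.4, 9913 and 9047 FPKM in the controls and 11993, 12559 and 12281 in the LPS libraries (0.37 ± 0.05, adjusted p = 0.0026). Pgk1, which makes the first ATP of the pathway, was 638, 635 and 658 FPKM in the controls and 873, 889 and 880.2 in the LPS libraries, with tight replicates in both groups (0.45 ± 0.03, adjusted p = 2.73e-05). Tpi1 (0.36 ± 0.03), Eno3 (0.36 ± 0.03), Pfkm (0.22 ± 0.03) and Ldha (0.29 ± 0.03) rose by similar amounts. Ldhb, the lactate dehydrogenase subunit of oxidative tissue, rose further, from 7.58 to 8.84 FPKM in the controls to 17.6 to 18.5 in the LPS libraries (1.14 ± 0.07, adjusted p = 5.2e-05). Of the glycogen genes, the branching enzyme Gbe1 rose by 0.81 ± 0.09, the phosphatase subunit Ppp1r3c by 0.52 ± 0.04 and glycogen synthase Gys1 by 0.24 ± 0.04. The call for Pygm, muscle glycogen phosphorylase (0.11 ± 0.03, adjusted p = 0.047), was lost when any 1 library was left out. The fall was in Pfkfb3, which makes the activator of phosphofructokinase, fructose 2,6-bisphosphate. It was 143, 135 and 135 FPKM in the controls and 56.7, 53.9 and 55.4 in the LPS libraries (-1.31 ± 0.04, adjusted p = 5.69e-07).

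Genes of mitochondrial fuel use rose as well. In the fatty acid list 22 of 37 tested genes rose and 2 fell, with a median of 0.21. The share called was 64.9%, beside 15.9% of all tested genes and 28.9% of those above 25.4 FPKM. Acadl, the long-chain acyl-CoA dehydrogenase, was 60.9, 63.5 and 68.0 FPKM in the controls and 85.6, 89.9 and 83.2 in the LPS libraries (0.43 ± 0.05, adjusted p = 0.00099). The entry steps were called higher as well, with Acsl1, which activates fatty acids, at 0.52 ± 0.05, the carnitine transferases Cpt1b at 0.19 ± 0.04 and Cpt2 at 0.36 ± 0.04, and the carnitine carrier Slc25a20 at 0.34 ± 0.05. The lipid droplet coats Plin3 (0.60 ± 0.07), Plin4 (0.57 ± 0.05) and Plin5 (0.97 ± 0.14) rose more. The largest change was in Bdh1, the ketone body dehydrogenase, at 0.552, 0.599 and 0.702 FPKM in the controls and 2.34, 2.45 and 2.10 in the LPS libraries (1.74 ± 0.17, adjusted p = 0.00045). The 2 falls were Fabp4, the fatty acid-binding protein of adipocytes and capillary endothelium, at 286, 286 and 289 FPKM beside 239, 218 and 223 (-0.34 ± 0.04, adjusted p = 0.0013), and Pdk4, which shuts off pyruvate dehydrogenase in fasting (-0.43 ± 0.04, adjusted p = 0.00029). With 1 library left out, 16 to 18 genes of the list were called higher.

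All 14 genes called in the TCA cycle list of 28 rose (50% called against 15.9% of all genes). The median over the list was 0.21, and 11 to 12 were called with any 1 library left out. Pcx, the pyruvate carboxylase that refills the cycle, was 24.2, 24.5 and 24.8 FPKM in the controls and 39.5, 39.1 and 39.1 in the LPS libraries (0.68 ± 0.04, adjusted p = 4.9e-05). Subunits of the pyruvate dehydrogenase complex rose, Pdha1 by 0.32 ± 0.03, Dlat by 0.40 ± 0.04 and Dld by 0.34 ± 0.06. Citrate synthase, Cs, was 327, 334 and 322 FPKM in the controls and 381, 392.3 and 372 in the LPS libraries, a fold change well inside 2-fold whose groups did not overlap (0.22 ± 0.04, adjusted p = 0.009). The subunits of the respiratory chain did not move as a block. Of 42 tested complex I genes 4 rose and 2 fell (14.3% called) with a median of -0.01. Of 30 genes of complexes II to IV 6 rose and 2 fell (26.7%) with a median of 0.04. Of 17 ATP synthase genes 3 rose and 1 fell (23.5%). Their transcripts are short, with medians of 8.27, 7.69 and 8.58 estimated reads for each FPKM. The 1858 tested genes with the fewest reads for each FPKM had a median log2 fold change of -0.06. Ckmt2, the mitochondrial creatine kinase, was 763, 783 and 808 FPKM in the controls and 1243, 1252 and 1233 in the LPS libraries (0.66 ± 0.04, adjusted p = 1.82e-05). Of 16 tested genes of the PGC-1 and nuclear receptor list 2 rose and 3 fell (31.25% called). With any 1 library left out, 0 to 1 rose and 2 to 3 fell. Ppargc1a, the coactivator of mitochondrial genes, was 1.96, 2.70 and 3.86 FPKM in the controls and 3.76, 3.86 and 4.19 in the LPS libraries and was not called (0.51 ± 0.26, adjusted p = 0.244).

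**Figure D4:**
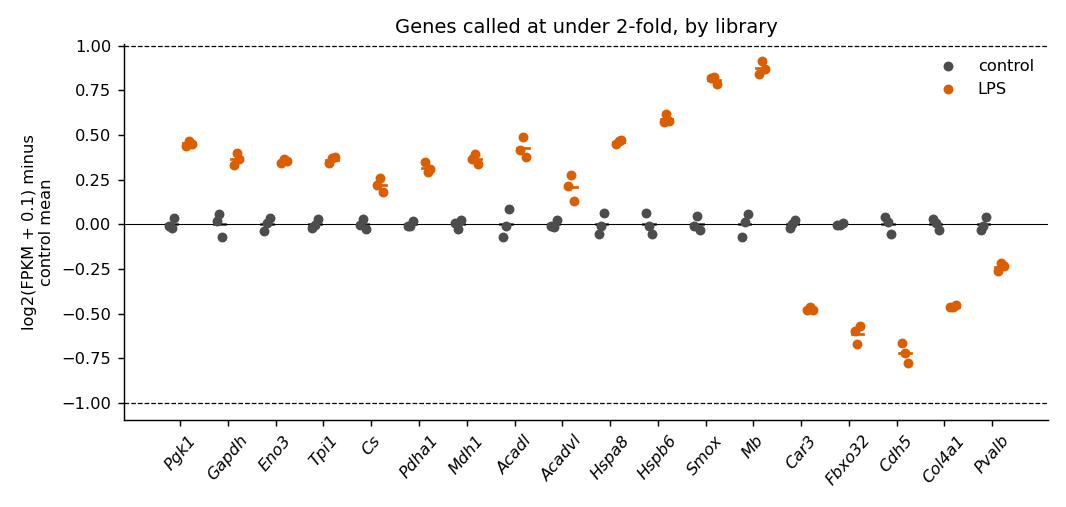
Log2(FPKM + 0.1) of each library minus the control mean for 18 genes called at under 2-fold. Dashed lines mark 2-fold. Each LPS point lies outside the range of the 3 control points, and the mean changes run from 0.87 for Mb to -0.72 for Cdh5.

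Amino acid and polyamine genes gave 13 rises and 1 fall among 26 tested (53.85% called against 15.9% of all genes). The median was 0.16, and 7 to 9 rises were called with 1 library left out. Smox, spermine oxidase, was 645, 671 and 635 FPKM in the controls and 1146, 1149 and 1119.7 in the LPS libraries (0.81 ± 0.03, adjusted p = 3.26e-06), the smallest adjusted p of the rises under 2-fold. Odc1, which makes putrescine, rose by 0.34 ± 0.03. The aspartate aminotransferases of the malate-aspartate shuttle both rose, Got1 by 0.50 ± 0.03 and Got2 by 0.42 ± 0.03. Itgb1bp3, the nicotinamide riboside kinase of muscle, was 223, 222 and 235 FPKM in the controls and 393, 402 and 405 in the LPS libraries (0.82 ± 0.06, adjusted p = 0.00012). The fall was in Gamt, of creatine synthesis (-0.42 ± 0.08, adjusted p = 0.012).

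Chaperones rose together, as 14 of 25 tested genes of the heat shock list were called higher and none lower. The 56% called stood beside 15.9% of all genes, and the median of the list was 0.32. With 1 library left out, 10 to 12 were called higher and at most 1 lower. Hspb7, a small heat shock protein of striated muscle, was 31.6, 28.0 and 28.2 FPKM in the controls and 58.2, 56.8 and 57.4 in the LPS libraries (0.97 ± 0.05, adjusted p = 1.12e-05). Hspb6 was 1009, 960.05 and 929 FPKM in the controls and 1434, 1483 and 1439 in the LPS libraries (0.59 ± 0.05, adjusted p = 0.0003). The constitutive cytosolic chaperone Hspa8 was 685, 708 and 745 FPKM beside 971, 985 and 989 (0.46 ± 0.04, adjusted p = 0.00013). The mitochondrial chaperones Hspd1 (0.54 ± 0.09) and Hspa9 (0.41 ± 0.04) rose too. In the endoplasmic reticulum Hspa5, the chaperone BiP, was 40.3, 38.4 and 38.7 FPKM in the controls and 62.7, 62.8 and 65.0 in the LPS libraries (0.70 ± 0.05, adjusted p = 6.5e-05). It was 1 of 6 rises (3 to 5 with any 1 library left out) among 21 tested genes of the unfolded protein and stress response. Chac1 was the fall, and 33.3% of that list was called. Atf4, a transcription factor of that response, rose by 0.31 ± 0.07 (adjusted p = 0.018) and was called in 2 of the 6 leave-outs.

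**Figure D5:**
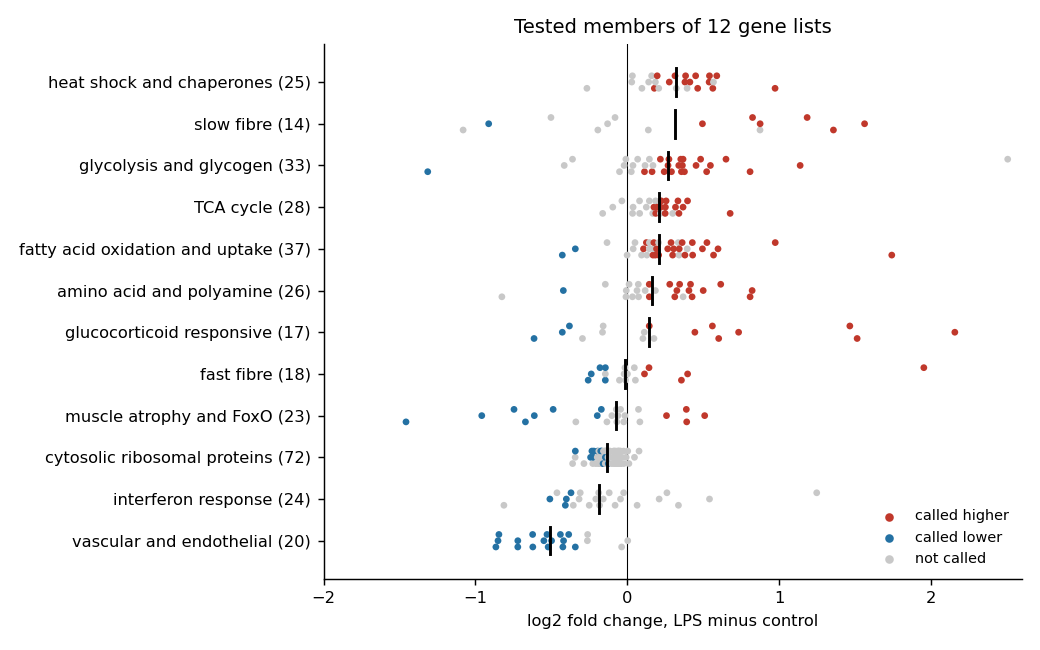
Log2 fold change, LPS minus control, of the tested members of 12 gene lists, ordered by their median (black bar), with the number tested in brackets. Members called higher are red, called lower blue and not called grey. The vascular list lies to the left of 0 with a median of -0.51, and the heat shock, glycolysis, TCA cycle and fatty acid lists lie mostly to the right.

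Vascular genes went the other way. Of 20 tested genes of the vascular and endothelial list 16 fell and none rose (80% called against 15.9% of all genes). The median was -0.51, and 13 to 16 fell with any 1 library left out. Cdh5, the cadherin of endothelial junctions, was 32.1, 31.5 and 29.9 FPKM in the controls and 19.6, 18.9 and 18.1 in the LPS libraries (-0.72 ± 0.07, adjusted p = 0.00029). Pecam1, the endothelial adhesion molecule CD31, was 8.91, 11.004 and 12.4 FPKM in the controls and 5.39, 5.49 and 6.83 in the LPS libraries (-0.85 ± 0.15, adjusted p = 0.0059). Cldn5, the endothelial tight junction claudin, fell by 0.85 ± 0.09, and Nos3, endothelial nitric oxide synthase, was 6.46, 6.11 and 5.63 FPKM beside 3.54, 3.10 and 3.22 (-0.87 ± 0.10, adjusted p = 0.0011). The VEGF receptors Kdr (-0.62 ± 0.11) and Flt1 (-0.42 ± 0.09) were called lower, as was their ligand Vegfa, at 94.6 to 101 FPKM in the controls and 82.5 to 85.4 in the LPS libraries (-0.22 ± 0.03, adjusted p = 0.003). Aqp1, the water channel of capillaries, was 102, 107 and 103 FPKM beside 70.2, 71.3 and 71.1 (-0.55 ± 0.06). Of the genes of mural cells, Pdgfrb (-0.39 ± 0.08) and Acta2 (-0.42 ± 0.07) were called lower. Tagln (-0.26), Myh11 (-0.04) and Rgs5 (0.002) were not called. Flt1 was called in 3 of the 6 leave-outs, and Pdgfrb in all but the one without LPS replicate 1. In bulk tissue, fewer cells of a type and less RNA in each such cell cannot be told apart.

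Of 30 tested genes of the extracellular matrix list 4 rose and 6 fell (33.3% called against 15.9% of all genes), with a median of -0.06. With any 1 library left out, 1 to 2 rose and 5 to 6 fell. The type IV collagens of basement membranes, Col4a1, at 26.7, 26.2 and 25.5 FPKM in the controls and 18.9, 18.9 and 19.1 in the LPS libraries (-0.46 ± 0.04, adjusted p = 0.00014), and Col4a2 (-0.42 ± 0.05) fell. Timp3, an inhibitor of metalloproteinases bound to matrix, fell by 0.58 ± 0.05. Thbs4, a thrombospondin of tendon and muscle, rose from 21.0, 22.7 and 23.0 FPKM to 39.1, 40.8 and 35.1 (0.78 ± 0.07, adjusted p = 0.00029). The fibroblast markers together summed to 204 to 222 FPKM in the controls and 209 to 221 in the LPS libraries, and of 14 tested 1, Cd34, was called lower, in 1 of the 6 leave-outs.

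Genes of muscle wasting moved mostly downwards. Of 23 tested genes of the atrophy and FoxO list 8 fell and 4 rose (52.2% called against 15.9% of all genes). With any 1 library left out 6 to 7 fell and 2 to 3 rose. Fbxo32, the ubiquitin ligase atrogin-1, was 33.5, 33.4 and 33.6 FPKM in the controls and 22.2, 21.0 and 22.5 in the LPS libraries (-0.61 ± 0.04, adjusted p = 4.71e-05). Trim63, the ligase MuRF1, was 88.3, 88.6 and 89.2 FPKM beside 79.4, 73.9 and 83.2 (-0.17 ± 0.04, adjusted p = 0.03), and kept its call in 1 of the 6 leave-outs. Cebpd, a transcription factor of the acute-phase response, fell from 12.3, 13.4 and 13.05 FPKM to 4.58, 5.35 and 4.05 (-1.46 ± 0.09, adjusted p = 4.9e-05). Klf15 (-0.67 ± 0.06), Sesn1 (-0.96 ± 0.09) and the mTOR inhibitor Ddit4 (-0.75 ± 0.10) also fell, and so did Ddit4l, its relative in muscle, from 179 to 183 FPKM in the controls to 100.5 to 103 in the LPS libraries (-0.83 ± 0.03, adjusted p = 2.7e-06). Mstn, the myokine that limits muscle mass, was among the rises, at 26.4, 26.6 and 28.6 FPKM beside 38.1, 37.1 and 41.0 (0.51 ± 0.06, adjusted p = 0.00088). Foxo1 was not called (0.07 ± 0.06, adjusted p = 0.466).

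Of 13 tested genes of regeneration and myogenesis 6 rose and 1 fell (53.85% called against 15.9% of all genes), with a median of 0.14. Myog, the factor that drives myoblast differentiation and responds to loss of nerve input, was 6.75, 6.37 and 6.50 FPKM in the controls and 16.4, 15.5 and 17.5 in the LPS libraries (1.32 ± 0.06, adjusted p = 9.5e-06). Myod1 was 23.0, 23.1 and 19.6 FPKM beside 33.9, 34.6 and 33.3 (0.63 ± 0.09, adjusted p = 0.0026). The acetylcholine receptor subunit Chrna1 (0.71 ± 0.12) and the synaptic kinase Musk (0.58 ± 0.12) rose with them, and Gadd45g fell from 167, 173 and 186 FPKM to 100.4, 109 and 111 (-0.71 ± 0.05, adjusted p = 7.52e-05). Of the calcium handling genes 6 of 28 tested rose and 6 fell (42.9% called), and 3 to 5 did so in each direction with any 1 library left out. The falls included the release channel Ryr1, at 236, 229 and 231 FPKM in the controls and 196, 183 and 190.2 in the LPS libraries (-0.29 ± 0.03, adjusted p = 0.001), and the voltage sensor Cacna1s (-0.13 ± 0.03), called in 2 of the 6 leave-outs, and the largest rise was in Atp1b1, a subunit of the sodium pump (1.11 ± 0.06, adjusted p = 2.1e-05).

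Genes of hormone and clock control changed in both directions. Of 17 tested glucocorticoid-responsive genes 8 rose and 3 fell (64.7% called against 15.9% of all genes), with a median of 0.14. Besides Mt1 and Mt2, Arrdc2, an arrestin-like protein, was 11.9, 11.5 and 10.9 FPKM in the controls and 32.8, 32.1 and 33.8 in the LPS libraries (1.51 ± 0.05, adjusted p = 1.4e-06). Fkbp5, the co-chaperone of the glucocorticoid receptor, was 6.19, 7.37 and 6.26 FPKM beside 10.9, 11.3 and 10.8 (0.73 ± 0.07, adjusted p = 0.00044), and Tsc22d3, the leucine zipper protein GILZ, rose by 0.56 ± 0.06. Errfi1 (-0.61 ± 0.06), Pdk4 and Sult1a1 (-0.38 ± 0.06) fell, and so did Klf15, a gene of the same hormone response on the atrophy list. Of 20 tested clock genes 7 rose and 3 fell (50% called), the latter 1 to 2 with any 1 library left out. Per2 was 1.14, 1.01 and 0.980 FPKM in the controls and 2.34, 2.79 and 2.15 in the LPS libraries (1.14 ± 0.12, adjusted p = 0.00065). Per1 (0.60 ± 0.07) and the output factor Dbp (0.69 ± 0.06) rose, and Usp2, a clock-controlled deubiquitinase, was 51.8, 51.0 and 49.1 FPKM beside 77.7, 77.2 and 76.9 (0.61 ± 0.03, adjusted p = 1.65e-05). Nr1d1 (-0.21 ± 0.05), called in 2 of the 6 leave-outs, and Nfil3 (-0.45 ± 0.06) fell. The clock time at which muscle was taken was not given for either group in the sources used here, so a difference in clock time and a difference in treatment cannot be told apart.

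Immediate early genes gave 3 rises and 7 falls among 20 tested (50% called against 15.9% of all genes). Nr4a1, an orphan nuclear receptor that responds to adrenergic input in muscle, was 70.2, 67.4 and 63.2 FPKM in the controls and 140.2, 143 and 138 in the LPS libraries (1.07 ± 0.04, adjusted p = 3.25e-06). Fosl2 rose by 0.96 ± 0.11 and Jun by 0.40 ± 0.05. The matricellular targets of YAP, Cyr61, at 13.5, 14.4 and 13.1 FPKM beside 5.60, 6.07 and 6.12 (-1.19 ± 0.05, adjusted p = 6.8e-06), and Ctgf (-0.98 ± 0.14) fell, and Ier5 fell by 1.47 ± 0.10. In the growth factor and insulin list 5 of 24 tested rose and 5 fell (41.7% called). There were 3 to 5 rises and 4 to 5 falls when any 1 library was left out. The binding proteins of insulin-like growth factors were called lower, with Igfbp5 at 173, 161 and 163 FPKM in the controls and 85.8, 83.1 and 86.0 in the LPS libraries (-0.96 ± 0.04, adjusted p = 7.45e-06), Igfbp3 at -1.31 ± 0.10 and Igfbp7 at -0.51 ± 0.07. Irs1, the insulin receptor substrate, fell by 0.42 ± 0.04. Akt2 was 8.81, 9.97 and 10.6 FPKM beside 15.2, 30.02 and 18.3, a rise (1.05 ± 0.22, adjusted p = 0.016) that was lost without control replicate 1, and Prkaa2, a catalytic subunit of AMP-activated kinase, was 0.489 to 0.869 FPKM beside 1.35, 3.30 and 2.77, a rise (1.56 ± 0.33, adjusted p = 0.016) that was lost without LPS replicate 2 or 3.

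Of 24 interferon response genes 4 fell and none rose, with a median of -0.19, and the 16.7% called was close to the 15.9% of all tested genes. With any 1 library left out 2 to 4 fell and 0 to 1 rose. The 4 called lower were Gbp6 (-0.51 ± 0.10), Irgm2 (-0.41 ± 0.07), Irf1 (-0.40 ± 0.10) and Stat2 (-0.37 ± 0.09), of which Irf1 was called in 3 of the 6 leave-outs and Stat2 in 2. Of 18 genes of NF-kB and LPS sensing 2 rose and none fell, or 11.1% beside the same 15.9%, and 0 to 2 rose and 0 to 1 fell with any 1 library left out. The 2 called higher were Relb, an NF-kB subunit, at 7.60, 8.82 and 7.64 FPKM in the controls and 11.4, 10.8 and 13.6 in the LPS libraries (0.56 ± 0.13, adjusted p = 0.021), and Tnfaip3, the feedback inhibitor A20, whose call (0.87 ± 0.22, adjusted p = 0.03) held in 1 of the 6 leave-outs, while that of Relb held in 2. Nfkbia, the NF-kB inhibitor that NF-kB itself induces, was not called (0.16 ± 0.06, adjusted p = 0.141). Of 24 cytokines on the list 3 passed the filter and each fell, Csf1 by 0.67 ± 0.09, Tnfsf10 by 0.54 ± 0.14 and Il12a by 0.46 ± 0.12, the last pair with a call in 0 and 1 of the 6 leave-outs. With no FPKM filter, 11 cytokines were tested, of which 1 was called higher and 1 lower, with a median of 0.005. Of 8 chemokines tested 50% were called. Ccl11 (0.59 ± 0.12), Cxcl14 (0.33 ± 0.08) and Ccl6 (0.73 ± 0.21) were called higher, Cxcl14 in 2 and Ccl6 in 1 of the 6 leave-outs. Cxcl12, at 28.8, 28.4 and 29.8 FPKM beside 20.7, 20.7 and 21.2, was called lower (-0.47 ± 0.09, adjusted p = 0.008).

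Of 38 tested antioxidant and Nrf2 genes 8 rose and 3 fell (28.95% called against 15.9% of all genes), with a median of -0.04. With any 1 library left out, 3 to 5 rose and 1 to 3 fell. Nfe2l2, the gene of Nrf2 itself, was 11.1, 10.7 and 10.6 FPKM in the controls and 12.5, 12.4 and 11.9 in the LPS libraries (0.19 ± 0.04, adjusted p = 0.022). The mitochondrial superoxide dismutase Sod2 was 60.7, 60.7 and 60.0 FPKM beside 70.4, 67.7 and 66.2 (0.17 ± 0.04, adjusted p = 0.019). Catalase, Cat, was 23.4, 21.9 and 23.4 FPKM beside 25.7, 23.9 and 25.5 and was not called (0.13 ± 0.05, adjusted p = 0.145), nor was Sod1 (-0.13 ± 0.04, adjusted p = 0.0728). The glutathione transferases Gstm1 (-0.24 ± 0.05) and Gstm2 (-0.35 ± 0.07) and the secreted peroxidase Gpx3 (-0.26 ± 0.07) fell. Of these small changes Nfe2l2 and Gstm1 were called in 2, Sod2 in 1 and Gpx3 in none of the 6 leave-outs. In the lipid synthesis list 2 of 24 tested rose (1 to 2 with any 1 library left out) and 3 fell, with 20.8% called. The falls included Thrsp, a lipogenic regulator (-0.49 ± 0.09), and Elovl5, a fatty acid elongase (-0.67 ± 0.13). Of 13 cell cycle genes 1 (7.69%) was called, the cyclin Ccnd3 (-0.24 ± 0.05), in 3 of the 6 leave-outs.

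Several of the most reproducible small changes belonged to none of these lists. Neat1, the nuclear long noncoding RNA of paraspeckles, was 699, 645 and 691 FPKM in the controls and 349, 341 and 349 in the LPS libraries (-0.97 ± 0.04, adjusted p = 2.7e-06). Car3, the carbonic anhydrase of slow muscle and fat, was 4708, 4793 and 4857 FPKM beside 3427, 3469 and 3426 (-0.48 ± 0.03, adjusted p = 5.32e-05). The muscle proteins encoded by Ky (-0.60 ± 0.04) and Mustn1 (-0.74 ± 0.05) fell, as did Aox1, an aldehyde oxidase (-0.94 ± 0.07), and the unannotated transcript 2310050B05Rik (-0.62 ± 0.03). Cd24a, a glycosylated surface protein, was 187, 193 and 193 FPKM in the controls and 323, 317 and 324 in the LPS libraries (0.75 ± 0.03, adjusted p = 6.81e-06). Lmcd1, a LIM-domain protein, rose by 0.82 ± 0.04, and 6430548M08Rik was called at the edge of the 2-fold limit (0.98 ± 0.06).

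Ribosomal protein genes were mostly slightly lower. Of 72 tested cytosolic ribosomal protein genes 14 (19.4%) were called lower and none higher. The median was -0.13, and 68 of the 72 had a log2 fold change below 0. The transcripts are short, with a median of 7.6 estimated reads for each FPKM, and short transcripts as a class were shifted. Over all tested genes, the 1858 genes with the fewest reads for each FPKM, at most 17.8, had a median of -0.06 with 89 rises and 163 falls, whereas the next 1857 had 0.00 with 176 rises and 127 falls. Once the trend of fold change with reads for each FPKM was removed, 4 ribosomal protein genes were called lower and 1 higher, with a median of -0.06. With the trend left in and 1 library left out, the number called lower ran from 6 to 22. No library was left out of the fit without the trend. Mitochondrial ribosomal protein genes gave 7 rises and 1 fall among 75 tested, proteasome subunits 1 rise and 2 falls among 37, zinc finger genes 2 rises and 6 falls among 179, and solute carriers 18 rises and 8 falls among 135. The shares called in these families, 10.7%, 8.11%, 4.47% and 19.3%, lay on both sides of the 15.9% of all tested genes.

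Markers of other cell types were set beside these changes. Macrophage markers summed to 57.9 to 60.8 FPKM in the controls and 72.9 to 77.1 in the LPS libraries, and of 11 tested 1 was called, C1qb, at 3.87, 3.91 and 3.30 FPKM beside 7.47, 6.86 and 7.42 (0.96 ± 0.09, adjusted p = 0.00025). The median of the 11 was 0.42, with 9 above 0. Groups did not overlap for 7 of the 11, where 36.9% of all tested genes were separated in either direction. The share of the 11 called was 9.09%, beside 15.9% of all tested genes. The LPS-MIC-1 libraries, which entered the estimate of spread, differed widely among themselves for these markers. Their macrophage sums ran from 69.6 to 283 FPKM, and Lyz2 was 5.27, 3.93 and 78.3 FPKM. The share called therefore does not rest on the spread of the control and LPS libraries alone. The count called higher was 4 when only the 6 libraries were fitted, 4 of 6 above 5 FPKM and 1 to 3 with any 1 library left out, with 3 without control replicate 2. Neutrophil markers summed to 2.24 to 3.79 FPKM in the controls and 1.95 to 2.72 in the LPS libraries, lymphocyte markers to 1.54 to 1.87 and 1.40 to 1.87. Erythroid genes were higher, at 438 to 530.4 FPKM beside 608 to 652, and all 3 tested were called, among them Hba-a2 (0.39 ± 0.08) and Hbb-b1 (0.33 ± 0.06). Adipocyte markers summed to 335 to 342 FPKM in the controls and 271 to 297 in the LPS libraries, most of it Fabp4, and nerve markers to 15.01 to 17.7 and 11.1 to 12.2, with Mbp, the myelin basic protein, at 5.44, 5.36 and 4.92 FPKM beside 2.35, 1.94 and 2.83 (-1.13 ± 0.13, adjusted p = 0.001). Liver and intestine markers were low, and of 2 tested in each list 1 was called higher. With no FPKM filter 3 of 16 intestine markers were called higher, and of 13 liver markers 1 was called higher and 2 lower. In that fit 722 of all 14601 genes were called higher and 647 lower. Apoa1 was 0.646, 0.183 and 0.277 FPKM in the controls and 3.82, 3.28 and 2.96 in the LPS libraries (3.00 ± 0.45, adjusted p = 0.00302), or 2 to 7 estimated reads beside 32 to 41.1. Apoa4 was 0.0996, 0.0494 and 0.2498 FPKM beside 3.46, 3.93 and 3.34 (4.07 ± 0.44, adjusted p = 0.000652). Summed over the list, liver markers were 5.29 to 5.45 FPKM in the controls and 7.69 to 7.77 in the LPS libraries, and intestine markers 5.82 to 7.36 and 11.02 to 12.1. Kidney markers stayed under 0.41 FPKM in all 6 libraries. The part of blood, fat, nerve or neighbouring tissue in the results was not tested.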

How the data were processed

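RNA of 9 gastrocnemius libraries (3 control, 3 LPS, 3 LPS-MIC-1) was read as FPKM. Per the methods and the submitters' processing notes, the authors quantified reads with kallisto, imported them with tximport and tested them with DESeq2, and the notes name mm9; the tool that made the FPKM values deposited for each gene was not given in the sources used here. The deposited comparison tables hold fold changes and p-values of the authors, which were not used; only their base mean, a depth-normalized signal deposited for each gene, was used to turn FPKM into estimated reads, which gave 13516600 to 14344600 reads per muscle library and whole reads (within 0.1) for 94.4% to 95.3% of genes with 1 to 10 estimated reads. A further 9 columns of per-sample values in the muscle table carry no name that matches a sample and were not used, nor were the libraries of cultured cells. Of the 21401 symbols, 18998 matched a RefSeq symbol (GRCm38.p6) and 2190 a synonym, and 25 had become date numbers. No coordinates or sequences were used.

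Genes with a mean above 1 FPKM over the 6 control and LPS libraries were fitted as log2(FPKM + 0.1) with limma 3.58.1 in R 4.3.3, as group means over all 9 libraries with an intensity trend, and the contrast LPS minus control was adjusted by Benjamini-Hochberg over 9301 genes. Fold changes on this scale understate the change of low genes. A gene was called at an adjusted p under 0.05. The fits were checked on simulated data. Replicates were averaged as 3 libraries because their spread exceeded counting error. Lists were described by counts and medians beside all tested genes. Genes named are the 12 largest rises and falls among called genes with separated groups, the 10 rises and 10 falls under 2-fold with the smallest adjusted p, called list members, the 5 most abundant called genes, the most abundant markers and the genes named in the study; list members not called are given where they are the defining gene. A gene that this rule names is not reported here. The members and lists were chosen with earlier results of these data known. Alternatives were another pseudocount (0.01 or 1), no filter or a filter at 5 FPKM, median-ratio and quantile scaling, no intensity trend, the 6 libraries alone, a replicate block, small RNA genes left out, each library left out, unadjusted p and, chosen after seeing the data, limma-voom on estimated reads and removal of the length trend.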

Additional observations from a re-analysis of the deposited data

How the results depend on the processing

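Of 284 called genes of the lists or the naming rule, 188 kept direction and call under all of the 19 alternatives that tested them. For 283 the direction was never reversed, and the exception was Tnni2 under quantile normalization (0.0231). Ckm, which had no change in either direction under that normalization, was not counted as reversed. Of these alternatives, an unadjusted p under 0.05 could not lose a call. Median-ratio scaling could barely change one, since its factor was 1.0063 in all 9 muscle libraries. Under quantile normalization, which gives each library the same distribution, the median of all genes was 0.003, beside 0.005 as deposited. With 1 library left out, 501 to 596 genes were called higher and 465 to 518 lower, of which 457 to 542 and 416 to 471 were under 2-fold, and 44 to 68 and 47 to 68 over 2-fold. The counts under 2-fold moved by more than 1.5 times for rises without LPS replicate 1 (457), 2 (474) or 3 (472) and for falls without control replicate 2 (417) or LPS replicate 1 (416) or 3 (416). With an unadjusted p under 0.05, 1447 genes were higher and 1324 lower, 1363 and 1237 under 2-fold and 84 and 87 over it. With no filter (14601 genes) 88 rises and 90 falls were over 2-fold, above 5 FPKM (5306 genes) 27 and 24, and with a pseudocount of 1 the falls over 2-fold were 35. Replicate numbers did not pair the libraries, since same-numbered control and LPS libraries had correlations of their deviations of -0.0093, 0.0036 and 0.0032, and a replicate block gave 638 rises and 582 falls, with 1150 of the 1480 calls kept. With the 6 libraries alone, 733 genes were called higher and 684 lower, and 1245 of the 1480 calls were kept. Calls were rarest among the least abundant genes (6.02% of those with 1 to 2.18 FPKM).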
